A study of Homo sapiens with 8 samples.

Results

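The collagen genes expressed in U2OS cells, an established human osteosarcoma line, were followed after depletion of CHERP, a nuclear protein that takes part in splicing. Members were the genes whose symbol has the form COL, a number, A and a number and that appear in any of the 10 tables of alternative splicing events made with rMATS, a program that counts the reads of both forms of each event. This gave 25 collagen genes among 12067 genes in all, with 125 of 89379 events in whole cells and 84 of 43559 events in the cytoplasm. A collagen gene without an alternative event in these tables was not analysed here.

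Cells were transfected for 48 h with 20 nM of an siRNA against EGFP, which served as the control, or of the siRNA CHERP#2 against CHERP. Poly(A)+ RNA was sequenced from whole cells and from the cytoplasm, the supernatant left after lysis in NP-40, with 2 libraries for each siRNA in each fraction (8 libraries). A single siRNA sequence and a single cell line stood for CHERP depletion. The reads counted in events summed to 29409956 to 35664568 in the whole-cell libraries and to 5370756 to 6580099 in the cytoplasmic libraries, and a read can count in more than 1 event. CHERP itself had 103 and 77 reads in its events with EGFP siRNA against 3 and 10 with CHERP siRNA in whole cells. In the cytoplasm it had 31 and 21 reads against 3 and 4. CHERP mRNA was thus lower in every CHERP library than in any EGFP library of the same fraction (whole cells, log2 fold change -3.45 ± 0.57, SE, adjusted p = 0.00139, limma). Of the osteoblast lineage markers, SPP1, which encodes osteopontin, had a tested level in both fractions and ALPL in the cytoplasm. RUNX2, SP7, BGLAP, IBSP and SPARC had no tested level, and neither had any of the endothelial, blood or chondrocyte markers.

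A collagen molecule is made of chains wound into a triple helix, which needs a glycine in each repeat of the chain, written Gly-X-Y. Fibrillar collagens bear load in bone and skin, basement membrane collagens form sheets under epithelia and vessels, collagen VI forms beaded microfibrils, fibril-associated collagens coat fibrils, and transmembrane collagens stay in the plasma membrane. Many helix exons hold whole codons only and begin with a glycine codon, so that a transcript can lose such an exon and stay in frame. Chains are hydroxylated and glycosylated in the endoplasmic reticulum, exported in large carriers, trimmed outside the cell, cross-linked by lysyl oxidases and bound by integrins and DDR receptors. Osteoblasts make mostly collagen I, and bone tumours keep this habit to a varying degree.

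The structure of the exons under study can be read in their sequence. The skipped-exon (SE) events of the collagen genes covered 111 distinct exons with a median length of 54 nt, against 114 nt over the 52810 distinct exons of all SE events. Lengths divisible by 3 made up 81.1% of the collagen exons (90 exons) against 40.6% of all exons, and lengths divisible by 9 made up 52.3% (58 exons) against 13.5%. Exons of exactly 54 nt were 18% of the collagen exons and 0.595% of all. In 53 of the 98 collagen exons that are wholly coding in the canonical transcript of GENCODE 44, a GGN codon, which encodes glycine, came back at each step of 3 codons. The 3 exons below are the 54-nt exons with the most reads in 3 different genes. They are followed by 4 helix exons whose inclusion levels did not overlap between siRNAs in a fraction. Such a lack of overlap held for 26.9% and 25% of all SE events averaging 20 reads in whole cells and cytoplasm. None of the 4 passed the splicing test. They are given on the sense strand of hg19 (GRCh37), with the GG of each in-frame GGN codon in capitals.
COL4A1 exon 17, chr13:110857700-110857753, minus strand: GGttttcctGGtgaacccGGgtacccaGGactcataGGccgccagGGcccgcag
COL6A3 exon 20, chr2:238267678-238267731, minus strand: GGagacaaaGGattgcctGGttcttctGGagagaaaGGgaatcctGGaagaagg
COL5A1 exon 23, chr9:137658846-137658899, plus strand: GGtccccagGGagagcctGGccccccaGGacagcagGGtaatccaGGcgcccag
COL13A1 exon 24, chr10:71683558-71683611, plus strand: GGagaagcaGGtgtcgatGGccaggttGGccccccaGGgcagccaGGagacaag
COL13A1 exon 32, chr10:71695106-71695147, plus strand: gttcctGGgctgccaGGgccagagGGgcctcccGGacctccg
COL12A1 exon 60, chr6:75804824-75804895, minus strand: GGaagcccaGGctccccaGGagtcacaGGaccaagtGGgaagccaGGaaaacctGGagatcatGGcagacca
COL6A2 exon 13, chr21:47538528-47538590, plus strand: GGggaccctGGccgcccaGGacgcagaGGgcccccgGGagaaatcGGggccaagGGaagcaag
Each 54-nt exon holds 18 codons, 6 of them GGN. In COL13A1 exon 32 the first GGN comes after 2 other codons, and 4 of its 14 codons are GGN.

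The first comparison asked which collagen mRNAs were more or less abundant after CHERP depletion. Abundance was measured as reads per base of effective length, scaled between libraries and summed over the SE and alternative splice site events of a gene. It could be tested in 17 of the 25 genes, whose events averaged 20 reads or more over the libraries of a fraction (15 in whole cells, 13 in the cytoplasm, 11 in both). The other 8 (COL1A1, COL5A2, COL5A3, COL7A1, COL9A3, COL18A1, COL19A1 and COL26A1) had fewer reads or, for COL1A1, retained-intron events alone. In whole cells COL5A1, COL17A1, COL12A1 and COL6A2 rose and COL16A1 and COL8A1 fell. In the cytoplasm COL4A2, COL12A1 and COL6A2 rose and COL16A1, COL11A1 and COL8A1 fell. Of these, 4 (COL12A1, COL6A2, COL16A1 and COL8A1) passed the test in both fractions, each in the same direction, and 8 passed it in either.

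These counts stand against a wide response of the transcriptome. In whole cells 36.7% of the 9660 genes tested passed at an adjusted p under 0.05, 19% rising and 17.7% falling, and 4 and 2 of the 15 collagen genes did (26.7% and 13.3%). In the cytoplasm 48.3% of 7293 genes passed, 25.8% rising and 22.5% falling, and 3 and 3 of the 13 collagen genes did (23.1% each). Of the cytoplasmic calls over all genes 53.5% were rises, and 40.2% when libraries were scaled by their total. The median log2 fold change of the collagen genes was 0.07 in whole cells and 0.04 in the cytoplasm, against 0.02 and 0.01 over all genes tested. As a group the collagen genes thus moved in both directions, at shares near those of all genes. Fewer cells making a transcript and less of it per cell cannot be told apart in these bulk samples, and the p-values measure the spread between 2 cultures.

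**Figure D1:**
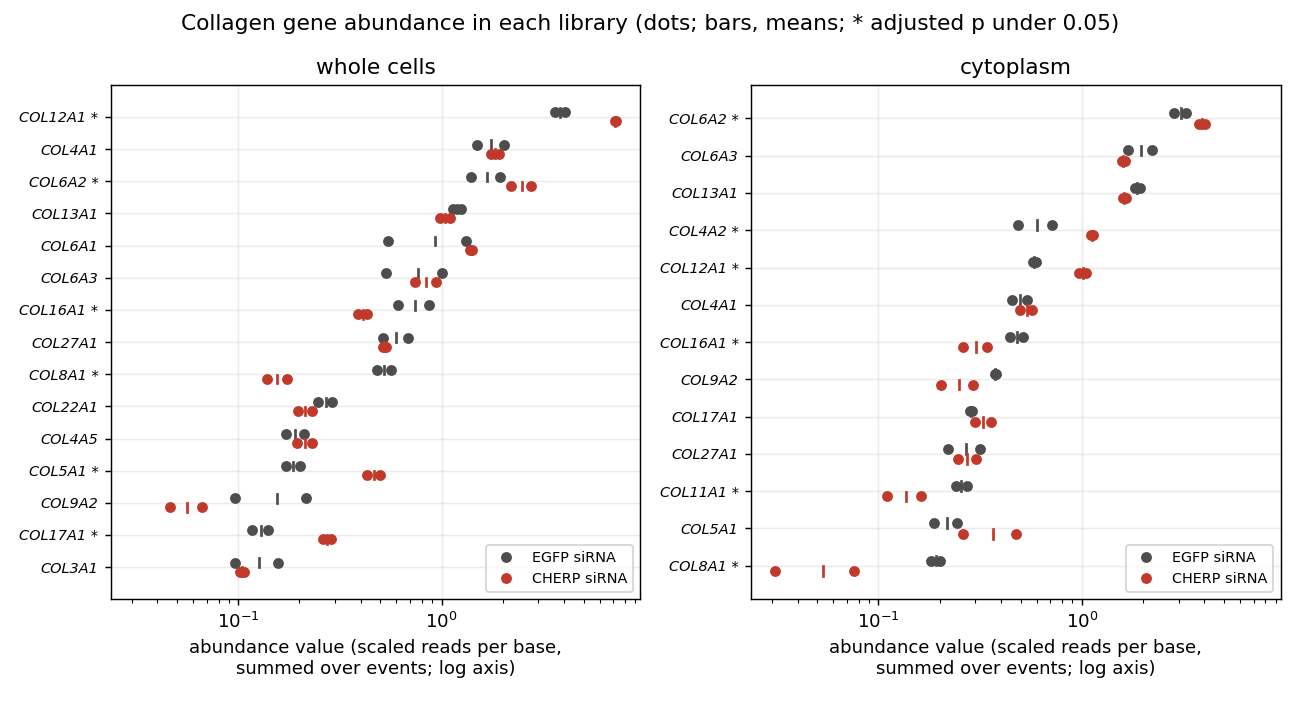
Abundance value of each tested collagen gene (scaled reads per base, summed over events, log axis) in every library, in whole cells (left) and cytoplasm (right). Dots are libraries, grey for EGFP siRNA and red for CHERP siRNA, short bars are means, and an asterisk marks an adjusted p under 0.05. COL12A1 lay between 7.11 and 7.23 in the CHERP libraries of whole cells, to the right of both EGFP libraries, and COL8A1 lay to the left of them in both fractions.

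Among the fibril-associated collagens, COL12A1, whose product binds along collagen I fibrils, rose in both fractions. In whole cells its abundance value was 3.63 and 4.06 in the EGFP libraries, and 7.11 and 7.23 in the CHERP libraries. The gap between the siRNAs was wider than the distance between libraries of either. The rise was 1.87-fold (log2 0.90 ± 0.12, SE, adjusted p = 0.000518). The cytoplasmic values were 0.595 and 0.574 against 1.05 and 0.971, a 1.72-fold rise (log2 0.78 ± 0.17, adjusted p = 0.00247). The 10 distinct COL12A1 exons with an SE event in whole cells were all covered more deeply in both CHERP libraries than in both EGFP libraries, which held for 32% of all distinct SE exons. In the cytoplasm it held for 4 of 5, against 32.3% of all. These exons share the transcript and are not replicates of it.

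COL16A1, another fibril-associated collagen, moved the opposite way. In whole cells it was 0.867 and 0.610 with EGFP siRNA against 0.389 and 0.428 with CHERP siRNA. All EGFP libraries were above all CHERP libraries, and the fall was 1.76-fold (log2 -0.82 ± 0.25, adjusted p = 0.0302). Cytoplasmic values were 0.444 and 0.513 against 0.262 and 0.343 (log2 -0.65 ± 0.23, adjusted p = 0.0367). The call was lost without whole-cell EGFP library 1 (adjusted p = 0.0788) and without either CHERP library there (0.157 and 0.0863). In the cytoplasm it was lost without either EGFP library (0.0541 and 0.164) or without CHERP library 1 (0.191). COL9A2, a chain of collagen IX, had values of 0.215 and 0.0967 against 0.0464 and 0.0660 in whole cells (log2 -1.24 ± 0.51, adjusted p = 0.0858), on 11 to 41 reads a library. It had a log2 fold change of -0.61 ± 0.25 in the cytoplasm (adjusted p = 0.0691), and neither passed the test. With 1 library left out in turn, the whole-cell log2 fold change ran from -1.78, without EGFP library 2, to -1.02. The cytoplasmic log2 fold change ran from -0.85 to -0.34 in the same way. COL9A2 passed the test in the cytoplasm with scaling by total (adjusted p = 0.0358). COL22A1 was tested in whole cells alone, with a log2 fold change of -0.32 ± 0.31 (adjusted p = 0.457).

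The network collagen COL8A1, a short chain known from the walls of vessels and the cornea, fell most of all the collagen genes tested in each fraction. In whole cells it was 0.565 and 0.482 with EGFP siRNA against 0.138 and 0.174 with CHERP siRNA, on 148 and 163 reads against 41 and 48. The fall was 3.23-fold (log2 -1.69 ± 0.30, adjusted p = 0.00191). The cytoplasmic libraries gave 0.182 and 0.2004 against 0.0311 and 0.0757, a 3.39-fold fall (log2 -1.76 ± 0.39, adjusted p = 0.00324) on 14 and 18 reads in the CHERP libraries. The siRNAs did not overlap in either fraction, as was the case for 70.1% of all genes tested in whole cells and 75.1% in the cytoplasm. All 4 distinct COL8A1 exons with an SE event in whole cells were covered less in both CHERP libraries, against 30.9% of all distinct SE exons. In the cytoplasm this held for 1 of 2 exons, against 30.5% of all. The COL8A1 exons share a gene, and their reads are part of its abundance value, so they are not replicates. In whole cells the 331-nt exon averaged 60 reads a library, and the other exons 4 to 10.5 in their best covered event.

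Of the fibrillar collagens, COL5A1 encodes a chain of collagen V, which sets the diameter of collagen I fibrils. In whole cells it was 0.202 and 0.172 with EGFP siRNA against 0.4998 and 0.428 with CHERP siRNA, a 2.41-fold rise (log2 1.27 ± 0.29, adjusted p = 0.00743). Cytoplasmic COL5A1 was 0.244 and 0.188 against 0.475 and 0.260, and the difference did not pass the test (log2 0.69 ± 0.31, adjusted p = 0.0833). The CHERP libraries were above the EGFP libraries in both fractions, but CHERP library 2 of the cytoplasm lay close to the control values. With 1 library left out in turn, the cytoplasmic log2 fold change ran from 0.27 to 1.13, the latter without CHERP library 2. COL5A1 passed the test in the cytoplasm without division by length (adjusted p = 0.0393). In whole cells the call was lost without CHERP library 1 (adjusted p = 0.0857) and when only 1 event per exon was used (0.113). COL11A1, a chain of the minor fibrillar collagen XI, had a tested level in the cytoplasm alone, on 1 event with 13 to 34 reads a library. It was 0.240 and 0.272 with EGFP siRNA against 0.163 and 0.110 with CHERP siRNA (log2 -0.88 ± 0.29, adjusted p = 0.0275). The call was lost without either EGFP library (adjusted p = 0.0526 and 0.112) or CHERP library 2 (0.174). COL27A1 had log2 fold changes of -0.18 ± 0.24 in whole cells and 0.04 ± 0.27 in the cytoplasm, and COL3A1 one of -0.21 ± 0.43 in whole cells, with adjusted p of 0.593, 0.920 and 0.728.

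The basement membrane chains COL4A1 and COL4A2 are made from a pair of neighbouring genes read in opposite directions and join in 1 molecule. COL4A2 had a tested level in the cytoplasm alone, on 1 event with 61 to 156 reads. It was 0.712 and 0.488 with EGFP siRNA against 1.13 and 1.11 with CHERP siRNA, a 1.88-fold rise (log2 0.91 ± 0.20, adjusted p = 0.00264). COL4A1 was 0.537 and 0.456 against 0.571 and 0.499 in the same libraries (log2 0.11 ± 0.20, adjusted p = 0.687). In whole cells COL4A1 was 2.03 and 1.49 against 1.74 and 1.91 (log2 0.07 ± 0.19, adjusted p = 0.791). The siRNAs overlapped for COL4A1 in both fractions, and whether the 2 genes differed in their response was not tested. COL4A5 had a log2 fold change of 0.15 ± 0.33 in whole cells (adjusted p = 0.757).

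Collagen VI is assembled from the chains of COL6A1, COL6A2 and COL6A3. COL6A2 was 1.94 and 1.40 with EGFP siRNA against 2.76 and 2.20 with CHERP siRNA in whole cells, a 1.495-fold rise (log2 0.58 ± 0.20, adjusted p = 0.0442). Its cytoplasmic values were 3.27 and 2.85 against 4.05 and 3.77 (log2 0.35 ± 0.10, adjusted p = 0.0152). The libraries did not overlap between siRNAs in either fraction, yet the whole-cell call was lost without EGFP library 2 (adjusted p = 0.0744) or CHERP library 1 (0.305), with 1 event per exon (0.0549), without division by length (0.0572) and with scaling by total (0.0940). The cytoplasmic call was lost without EGFP library 2 (0.0969), without CHERP library 1 (0.0532) and with scaling by total (0.0868). COL6A1, measured in whole cells alone, was 1.31 and 0.544 against 1.41 and 1.37. EGFP library 2 set it apart, with 130 reads against 284 in the other EGFP library. The log2 fold change was 0.71 ± 0.34 (adjusted p = 0.126), and it was 0.09 without that library and 1.33 without the other EGFP library (adjusted p = 4.81e-05). COL6A3 had a log2 fold change of 0.19 ± 0.30 in whole cells (adjusted p = 0.638) and -0.27 ± 0.14 in the cytoplasm (adjusted p = 0.136). Without EGFP library 1 of whole cells its log2 fold change was 0.63 (adjusted p = 0.0319), and without EGFP library 2 it was -0.26. In the cytoplasm its log2 fold change ran from -0.46, without EGFP library 2, to -0.083 with 1 library left out in turn. COL6A3 passed the test there with scaling by total (adjusted p = 0.0429).

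The transmembrane collagen COL17A1, a part of hemidesmosomes, was 0.140 and 0.117 with EGFP siRNA against 0.262 and 0.286 with CHERP siRNA in whole cells, on 23 to 55 reads a library. The rise was 2.05-fold (log2 1.04 ± 0.34, adjusted p = 0.0373), and the call was lost without either CHERP library (adjusted p = 0.173 and 0.242), without division by length (0.0524) and with scaling by total (0.0529). Its cytoplasmic values were 0.283 and 0.289 against 0.358 and 0.299 (log2 0.19 ± 0.24, adjusted p = 0.538). COL13A1, which sits at neuromuscular junctions and other cell contacts, had log2 fold changes of -0.20 ± 0.18 and -0.21 ± 0.12 in whole cells and cytoplasm (adjusted p = 0.432 and 0.165). Under the 11 alternative settings its cytoplasmic log2 fold change ran from -0.33 to -0.17, and it passed the test in 1 of them. The effect of CHERP siRNA on abundance was measured in each fraction from separate tables, and whether it differed between fractions was not tested for any gene.

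**Figure D2:**
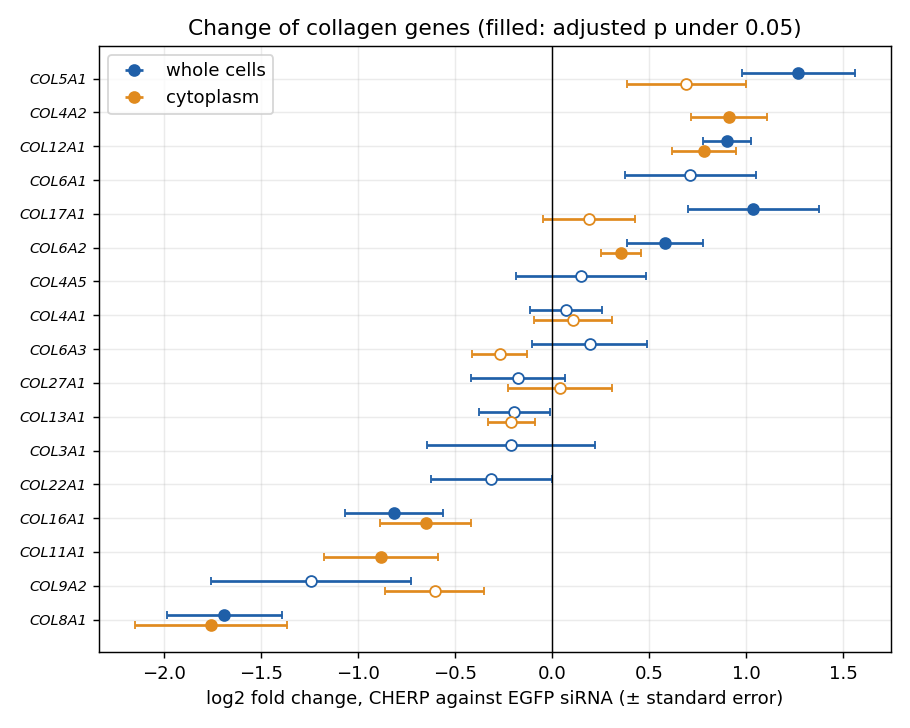
Log2 fold change of each tested collagen gene between CHERP and EGFP siRNA, with its standard error, in whole cells (blue) and cytoplasm (orange). Filled points have an adjusted p under 0.05. COL8A1 lies farthest to the left at -1.69 and -1.76, and COL5A1 in whole cells farthest to the right at 1.27.

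To order the genes by level, the median coverage over the distinct exons of each gene was taken per 1000 bases, which allows for length. This order covers the 19 genes of each fraction that have an SE event. It leaves out COL1A1, whose RI event had 58 and 29 spliced reads in the EGFP libraries of whole cells and 176 and 153 in those of the cytoplasm. In whole cells it also leaves out COL4A2, COL11A1, COL9A3, COL18A1 and COL26A1. In the cytoplasm it also leaves out COL6A1, COL3A1, COL5A2, COL5A3 and COL26A1. Among the genes it covers, COL4A1 stood first with EGFP siRNA in whole cells, at 436 ± 98.2 (SD, n = 2, 4 exons), before COL6A1 at 420 ± 274 (3 exons), COL6A2 at 397 ± 80.0 (2 exons) and COL12A1 at 307 ± 26.3 (10 exons). COL6A3 followed at 222 ± 116, and neighbours among these 5 did not differ beyond their spread. Among those of the cytoplasm COL6A2 stood first at 1139 ± 94.9 (2 exons), before COL4A2 at 600.1 ± 158 and COL4A1 at 496 ± 57.1 (1 exon each). COL6A2 was above COL4A2 by more than the spread between libraries, which leaves out the spread between exons. Its 2 exons had 1499 and 1445, and 912 and 698, in the EGFP libraries. The COL4A2 exon had 712 and 488, so the order depends on which exons have an event. COL4A2 and COL4A1 were not told apart. The least covered of them were COL5A3 in whole cells, at 3.74 ± 5.29, and COL19A1 in the cytoplasm, at 2.49 ± 3.53, where 1 EGFP library had no read.

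The gene table that the authors deposited for the cytoplasm gives the mean normalised count of 2 conditions without naming the siRNAs, and lists the 6757 genes past their posterior threshold. CHERP had 209 in condition 1 and 1685 in condition 2. The ratio of the conditions had the sign of CHERP over EGFP in 4064 of 4197 genes with a tested abundance (96.8%). Of the 10 members listed, 7 were higher in condition 1 and 3 were lower, where 58.2% and 41.8% of all listed genes were. COL6A1, which had no cytoplasmic event, had authors' means of 4283 and 2527, COL18A1 had 208 and 117, and COL5A1 had 2646 and 1412. COL8A1 had authors' means of 123 and 446. The 8 listed members with a tested abundance had the same sign in both measures, which come from the same libraries and are not independent.

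Genes that act on collagen were taken from 6 lists of 90 names, of which 52 had a tested level in whole cells and 42 in the cytoplasm. In whole cells 16 rose and 12 fell, and in the cytoplasm 14 rose and 11 fell. These are 30.8% and 23.1% of the tested members in whole cells and 33.3% and 26.2% in the cytoplasm, to be read against the 19% and 17.7%, and the 25.8% and 22.5%, of all genes given above. Without whole-cell CHERP library 2 the count of members called was 14 in place of 28, while the calls over all genes went from 3546 to 2107.

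Of the enzymes and chaperones that modify and fold the chains, 5 rose and 3 fell of 16 tested in whole cells, and 5 rose and 2 fell of 15 in the cytoplasm. The lysyl hydroxylases did not all move one way. PLOD3, which also adds sugars to hydroxylysine, was 2.82 and 2.40 with EGFP siRNA against 5.14 and 5.05 with CHERP siRNA in whole cells (log2 0.97 ± 0.14, adjusted p = 0.000629). PLOD2, which hydroxylates the chain ends where cross-links form, was 9.23 and 9.71 against 4.49 and 4.68 (log2 -1.05 ± 0.12, adjusted p = 0.000148). Neither overlapped between siRNAs, and in the cytoplasm their log2 fold changes were 0.99 ± 0.09 and -1.13 ± 0.12 (adjusted p = 7.92e-06 and 1.98e-05). PLOD1, the third of the family, rose in the cytoplasm (log2 0.40 ± 0.07, adjusted p = 0.00103) and did not pass in whole cells (log2 0.36 ± 0.17, adjusted p = 0.119). The catalytic subunits of prolyl 4-hydroxylase also parted. P4HA1 rose by 0.62 ± 0.11 and 0.57 ± 0.18 on the log2 scale in whole cells and cytoplasm, while P4HA2 had log2 fold changes of -0.53 ± 0.11 and -0.73 ± 0.11. Their shared partner P4HB rose by 0.48 ± 0.10 and 0.52 ± 0.06. The galactosyltransferase COLGALT1 rose in the cytoplasm (log2 0.65 ± 0.10), and the prolyl isomerase FKBP14 fell in whole cells (log2 -0.52 ± 0.14). The collagen chaperone SERPINH1 did not pass the test in either fraction (log2 0.26 ± 0.41 and 0.23 ± 0.17).

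Of the export genes, KDELR2, a receptor that returns chaperones to the endoplasmic reticulum, rose in both fractions (log2 0.56 ± 0.11 and 0.38 ± 0.08), and KLHL12, which enlarges the carriers that hold procollagen, rose in whole cells (log2 0.67 ± 0.17). The other 7 of 9 tested in whole cells and 5 of 6 in the cytoplasm did not pass. Among genes that trim and cross-link collagen, LOXL1, a lysyl oxidase-like enzyme, was 0.347 and 0.181 against 0.699 and 0.745 in whole cells (log2 1.49 ± 0.32) and rose in the cytoplasm too (log2 1.76 ± 0.22). PCOLCE, which speeds the removal of the C-terminal propeptide, was 0.478 and 0.323 against 0.112 and 0.119 in whole cells (log2 -1.69 ± 0.34, with -0.96 ± 0.24 in the cytoplasm). BMP1, the protease that it helps, rose by 0.65 ± 0.19 and 0.46 ± 0.16, and PCOLCE2 rose in the cytoplasm by 1.497 ± 0.24. LOXL2 had a log2 fold change of -0.56 ± 0.21 in the cytoplasm, close to the threshold (adjusted p = 0.0495). ADAMTS3, which removes N-terminal propeptides, fell in whole cells (log2 -0.95 ± 0.32, adjusted p = 0.0429, on 33 to 74 reads a library). In all, 2 rose and 2 fell of 7 in whole cells, and 3 rose and 2 fell of 6 in the cytoplasm.

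The collagen receptors also parted. DDR1, a receptor tyrosine kinase activated by collagen, was 1.82 and 1.27 with EGFP siRNA against 0.635 and 0.534 with CHERP siRNA in whole cells, a 2.59-fold fall (log2 -1.37 ± 0.23, adjusted p = 0.00137). The cytoplasmic fall was 3.37-fold (log2 -1.75 ± 0.12, adjusted p = 5.60e-07), from 3.47 and 3.36 to 1.04 and 0.973. ITGB1 and ITGA2, the chains of a collagen-binding integrin, rose in both fractions, by 0.58 ± 0.10 and 0.63 ± 0.12 on the log2 scale in whole cells and by 0.44 ± 0.07 and 0.54 ± 0.18 in the cytoplasm. Of the turnover genes, the protease inhibitor TIMP1 rose in both fractions (log2 0.77 ± 0.11 and 0.74 ± 0.05) and TIMP3 in whole cells (log2 1.16 ± 0.41, adjusted p = 0.0483). MMP2 was the third member tested and did not pass.

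Of the proteins that lie beside collagen in the matrix, 3 rose and 6 fell of 13 tested in whole cells, and 2 rose and 6 fell of 10 in the cytoplasm. TNC, which encodes tenascin C, was 21.5 and 18.7 with EGFP siRNA against 67.0 and 67.3 with CHERP siRNA in whole cells (log2 1.74 ± 0.10, with 1.28 ± 0.11 in the cytoplasm). The laminin chain LAMB1 was 7.28 and 7.23 against 16.2 and 15.9 in whole cells (log2 1.14 ± 0.11, with 1.26 ± 0.20 in the cytoplasm). NID1, which links laminin to collagen IV, was 2.77 and 2.73 against 0.850 and 0.803 in whole cells (log2 -1.72 ± 0.16, with -1.503 ± 0.18 in the cytoplasm). THBS1, EFEMP1, LAMA5 and FBLN1 fell in both fractions, with log2 fold changes from -1.56 to -1.04 in whole cells and from -1.36 to -0.95 in the cytoplasm. FN1, which encodes fibronectin, did not pass in either (log2 0.31 ± 0.12 and -0.05 ± 0.14, adjusted p = 0.0647 and 0.787). SPP1 rose by 2.82 ± 0.25 and 2.88 ± 0.13 on the log2 scale. ALPL rose in the cytoplasm too, where 48.3% of all genes tested passed the test. Markers of other cell types moved in the same libraries. The smooth muscle marker CNN1 rose by 2.48 ± 0.21 and 2.55 ± 0.14, while MYH11 and DES had no tested level. The epithelial marker KRT8 had log2 fold changes of -0.53 ± 0.13 and -0.50 ± 0.09, with the other 4 epithelial markers without a tested level. The part of these genes in the collagen changes was not tested.

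**Figure D3:**
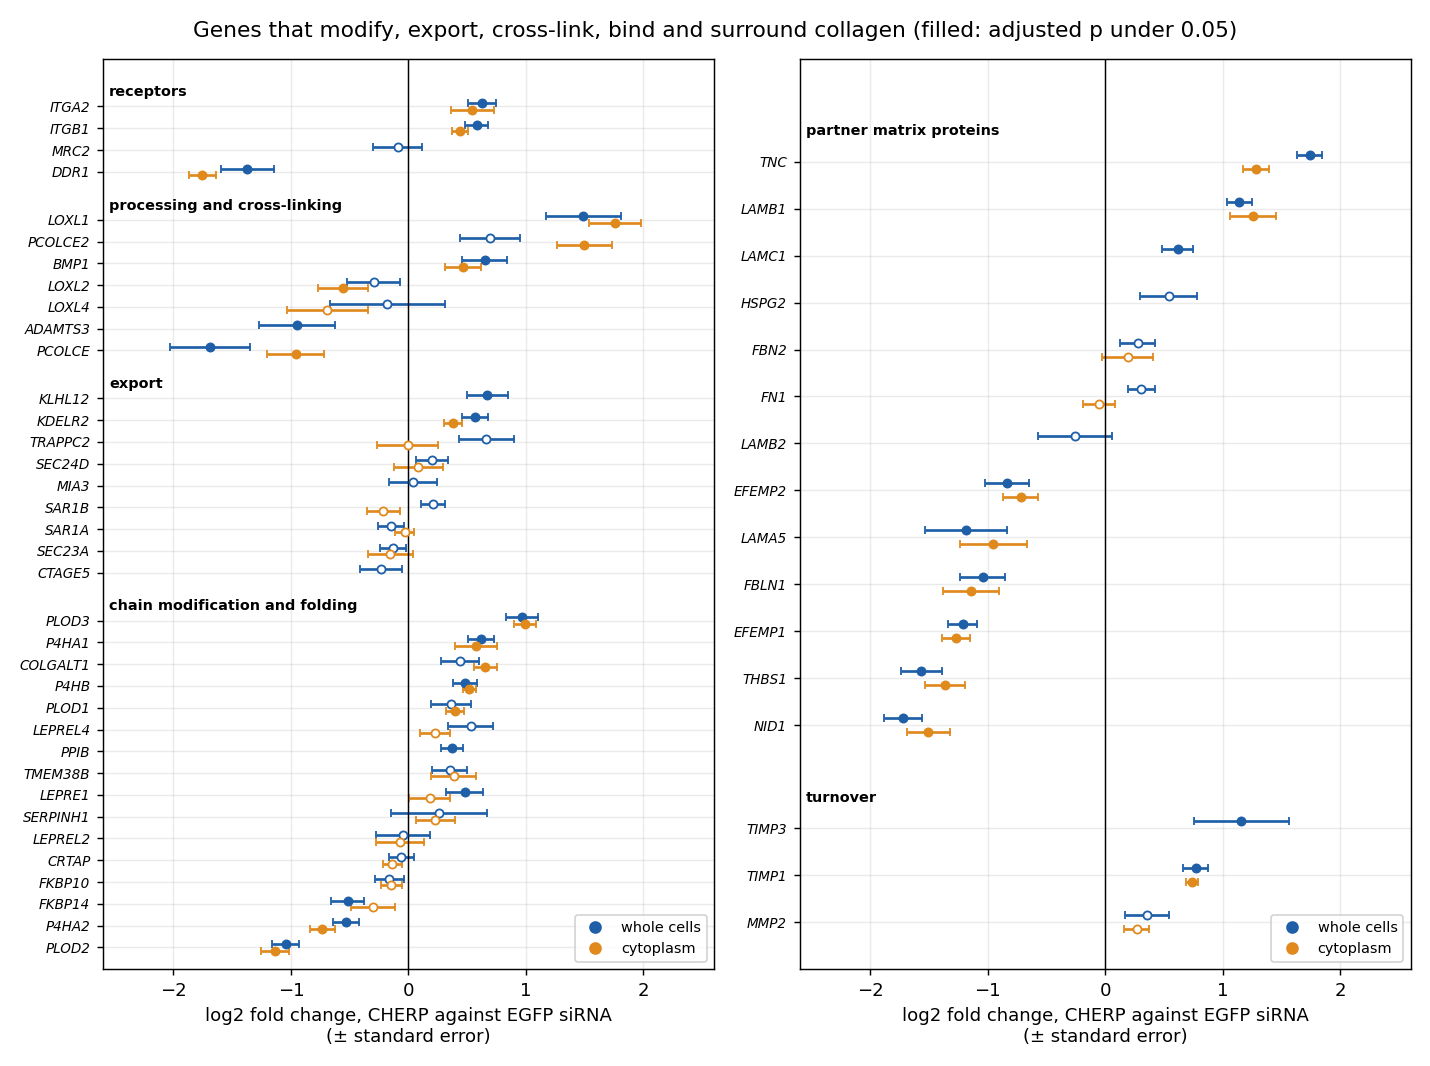
Log2 fold change between CHERP and EGFP siRNA, with its standard error, of the tested genes of the 6 lists that modify, export, trim, bind, turn over or surround collagen, in whole cells (blue) and cytoplasm (orange). Filled points have an adjusted p under 0.05. Within most lists points lie on both sides of 0, such as PLOD3 at 0.97 and PLOD2 at -1.05 in whole cells.

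The second comparison asked whether CHERP depletion changed how collagen transcripts were spliced. No collagen event passed an FDR of 0.05 in any of the 10 tables, in the quasi-binomial test of inclusion against skipping reads and in limma on the log2 odds alike. In whole cells this concerned 99 SE, 5 retained intron (RI), 5 alternative 3′ splice site (A3SS), 4 alternative 5′ splice site (A5SS) and 12 mutually exclusive exon (MXE) events. The shares of all events called in the same tables were 0.893% for SE, 3.26% for RI, 1.14% for A3SS, 1.13% for A5SS and 1.6% for MXE. In the cytoplasm there were 66 SE, 2 RI, 5 A3SS, 1 A5SS and 10 MXE events of collagen genes, and the shares of all events called were 0.254%, 2.12%, 0.372%, 0.617% and 0.863%. At an unadjusted p under 0.05 there were 2 collagen SE events in whole cells and 1 in the cytoplasm by the quasi-binomial test. It held for 5.54% and 3.41% of all SE events by that test. By limma there were 7 and 4, for which no share over all events is given here. Of the other types there were 0 by both tests, against 4.15% to 11.3% of all events by the quasi-binomial test. The low shares called at the FDR leave room for few calls among so few events. These shares also depend on the test. With rMATS and the same FDR threshold, the study reported many more changed skipped exons than were called here. The FDR values of the authors were not used for the collagen events. The lack of collagen calls thus holds for the tests used here, and these shares do not measure how far splicing responds to CHERP depletion.

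Most collagen events were thinly covered. The collagen SE events had a median of 10.5 reads per library in whole cells and 9 in the cytoplasm, against 88.8 and 33 over all SE events, and 28 and 17 of them reached a mean of 20 reads. Tests limited to a mean of 50 reads took in 21 and 6 collagen SE events and also gave 0 calls. Every event in the tables had at least 1 read of each form in some library, so an exon never seen skipped is not listed. For 36 of the 99 collagen SE events in whole cells and 31 of the 66 in the cytoplasm the skipped form rested on 1 read over 4 libraries. Inclusion levels, the share of transcripts that hold the exon after correction for the length of both forms, averaged 0.9 or more in 23 of the 28 events (82.1%) in whole cells. The same held for 15 of 17 (88.2%) in the cytoplasm, where it was 75.4% of all SE events of that depth, and for 79% of all in whole cells. Read counts carry no molecular identifiers, so the intervals given here for single libraries cover counting error only.

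**Figure D4:**
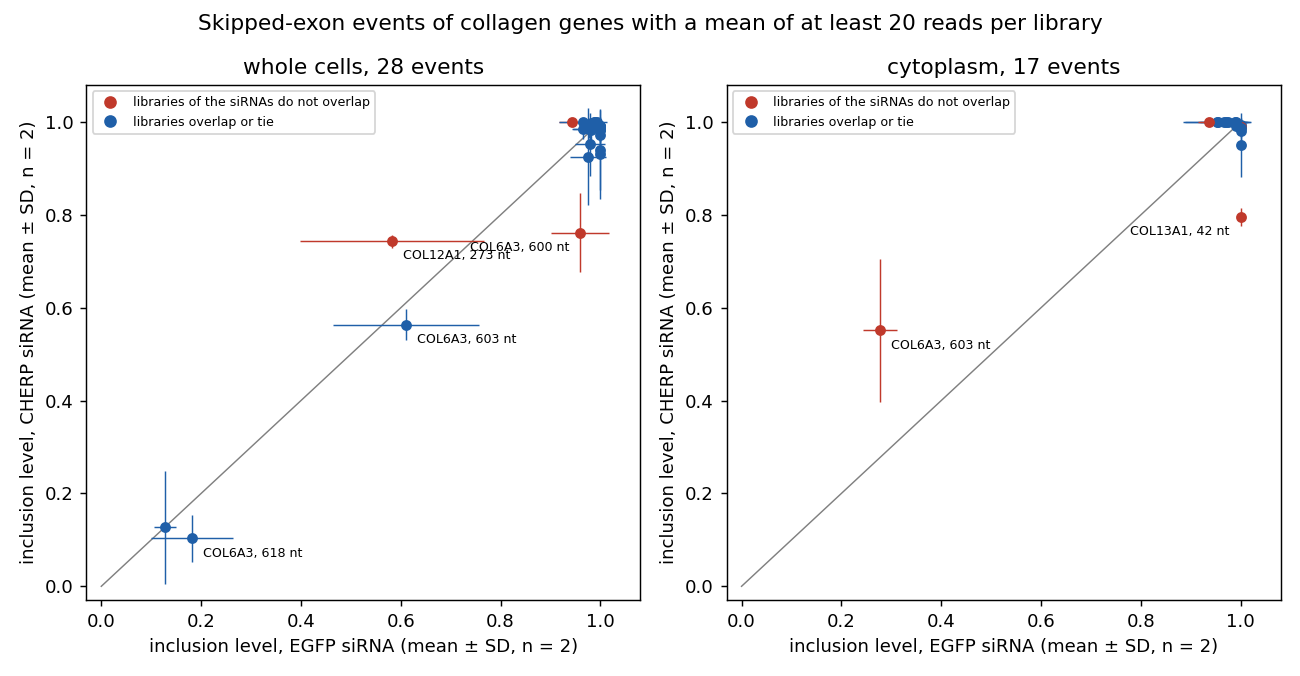
Mean inclusion level (± SD, n = 2) with CHERP siRNA against EGFP siRNA for the 28 whole-cell and 17 cytoplasmic SE events of collagen genes averaging 20 reads or more. Red points have libraries that do not overlap between siRNAs, and the line marks equal levels. Most points crowd near 1. In whole cells the 600-nt, 603-nt and 618-nt exons of COL6A3 and the 273-nt exon of COL12A1 lie apart from them. In the cytoplasm the 603-nt exon of COL6A3 and the 42-nt exon of COL13A1 do.

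Among those events the libraries did not overlap between siRNAs in 3 of 28 in whole cells and 4 of 17 in the cytoplasm, against 26.9% and 25% of all SE events of that depth. They include 2 exons of COL6A3, whose 5′ part encodes a row of von Willebrand factor A domains, each in an exon of its own, and 1 long exon of COL12A1. The splice sites of 3 COL6A3 exons and that COL12A1 exon are shown because they account for all 5 whole-cell SE events of that depth with a mean level under 0.9 (exon 3 of COL6A3 has 2). Each is given with 20 intron bases before and 6 after the exon, the exon bases being in capitals.
COL6A3 exon 3 (618 nt, chr2:238303230-238303847), acceptor: accaatgtctttttttaaagATG
COL6A3 exon 3, donor: CAGgtaatg
COL6A3 exon 4 (603 nt, chr2:238296225-238296827), acceptor: tgcatttctttcttttaaagCAC
COL6A3 exon 4, donor: AAGgtatgt
COL6A3 exon 6 (600 nt, chr2:238287279-238287878), acceptor: ttttctgtgcttcactgcagTTC
COL6A3 exon 6, donor: CAGgtaaac
COL12A1 exon 13 (273 nt, chr6:75884754-75885026), acceptor: gttgtcattttttaatgaagTTA
COL12A1 exon 13, donor: AAGgtaatt
All 4 exons lie on the minus strand and are coding, and exon numbers are those of the canonical transcripts, with 44 exons for COL6A3 and 66 for COL12A1.

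The COL6A3 exons differed in how often they were used. In whole cells exon 6 had inclusion levels of 0.919 and 1.00 with EGFP siRNA against 0.821 and 0.701 with CHERP siRNA. The Wilson 95% intervals of the EGFP libraries ran from 0.813 to 0.967 and from 0.899 to 1.00, and those of the CHERP libraries from 0.697 to 0.902 and from 0.583 to 0.798. Skipping rested on 4 and 0 reads against 8 and 15, with 176 to 233 reads of the exon. The difference in level was -0.20, the odds ratio of inclusion was 0.158 (95% interval 0.0283 to 0.884), and the FDR was 0.482. In the cytoplasm the same exon had 15 reads a library and levels of 0.303 and 1.00 against 0.603 and 0.566, which overlapped.

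COL6A3 exon 4 had levels of 0.508 and 0.715 with EGFP siRNA against 0.587 and 0.540 with CHERP siRNA in whole cells, which overlapped. In the cytoplasm it was at 0.253 and 0.302 against 0.442 and 0.660, which did not, with a difference of 0.27, an odds ratio of 2.83 (0.558 to 14.3) and an FDR of 0.762 on 25.8 reads. COL6A3 exon 3 was mostly skipped. Beside 1 set of neighbours it was at 0.124 and 0.240 against 0.0678 and 0.138 in whole cells, and in its second event at 0.144 and 0.112 against 0.0412 and 0.213. The order from exon 6 through exon 4 to exon 3 held in each of the whole-cell libraries, where the first event of exon 3 shares its skipping reads with exon 4.

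COL12A1 exon 13 had inclusion levels of 0.713 and 0.452 with EGFP siRNA against 0.733 and 0.753 with CHERP siRNA in whole cells, on 155 reads a library. EGFP library 2 set it apart, with 26 skipping reads against 11 in the other EGFP library. The difference was 0.16, with an odds ratio of 2.20 (1.03 to 4.70) and an FDR of 0.784, and it was 0.03 without that library. In the cytoplasm the exon had 9.25 reads a library, and levels from 0.240 to 1.00 that overlapped between siRNAs.

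The helix exons printed above stayed close to full inclusion where depth allowed a statement. COL13A1 exon 24 was at 0.962 and 0.925 with EGFP siRNA and at 1.00 in both CHERP libraries of whole cells, a difference of 0.06 that rested on 1 skipping read in each EGFP library (FDR 0.784). COL12A1 exon 60 was at 0.953 and 0.921 against 1.00 and 1.00 in the cytoplasm, again with 1 skipping read in each EGFP library (FDR 0.762). COL6A2 exon 13 was at 1.00 and 1.00 against 0.994 and 0.985 in the cytoplasm, on 239 reads a library, with 1 and 2 skipping reads in the CHERP libraries. COL13A1 exon 32 was the exception. It was at 1.00 in both cytoplasmic EGFP libraries and at 0.809 and 0.782 in the CHERP libraries, on 21 reads a library, with 3 skipping reads in each CHERP library (difference -0.20, FDR 0.762). The 0 skipping reads of 19 and 22 in the EGFP libraries allow a share of skipping reads of up to 15.8% and 13.6%. In whole cells the same exon was at 0.823 and 1.00 against 0.844 and 0.756, which overlapped.

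COL13A1 held the largest share of the events, with 20 SE events over 15 exons in whole cells and 18 over 13 exons in the cytoplasm. Its levels spread over the whole range. With reads summed over the 4 libraries, and the best covered event taken for each exon, 7 of the 15 whole-cell exons were under 0.5, 5 were between 0.5 and 0.9, and 3 were at 0.9 or more. In the cytoplasm these were 6, 4 and 3 of 13. Exon 35 (36 nt) was at 0.0659 in whole cells and 0.148 in the cytoplasm, exon 31 (45 nt) at 0.356 and 0.214, exon 4 (27 nt) at 0.310 and 0.347, and exon 11 (27 nt) at 0.969 and 0.981. Exon 39 (87 nt) was at 0.843 and 0.740. The smallest FDR among its SE events was 0.784 in whole cells and 0.762 in the cytoplasm, and most of these exons had fewer than 20 reads a library.

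**Figure D5:**
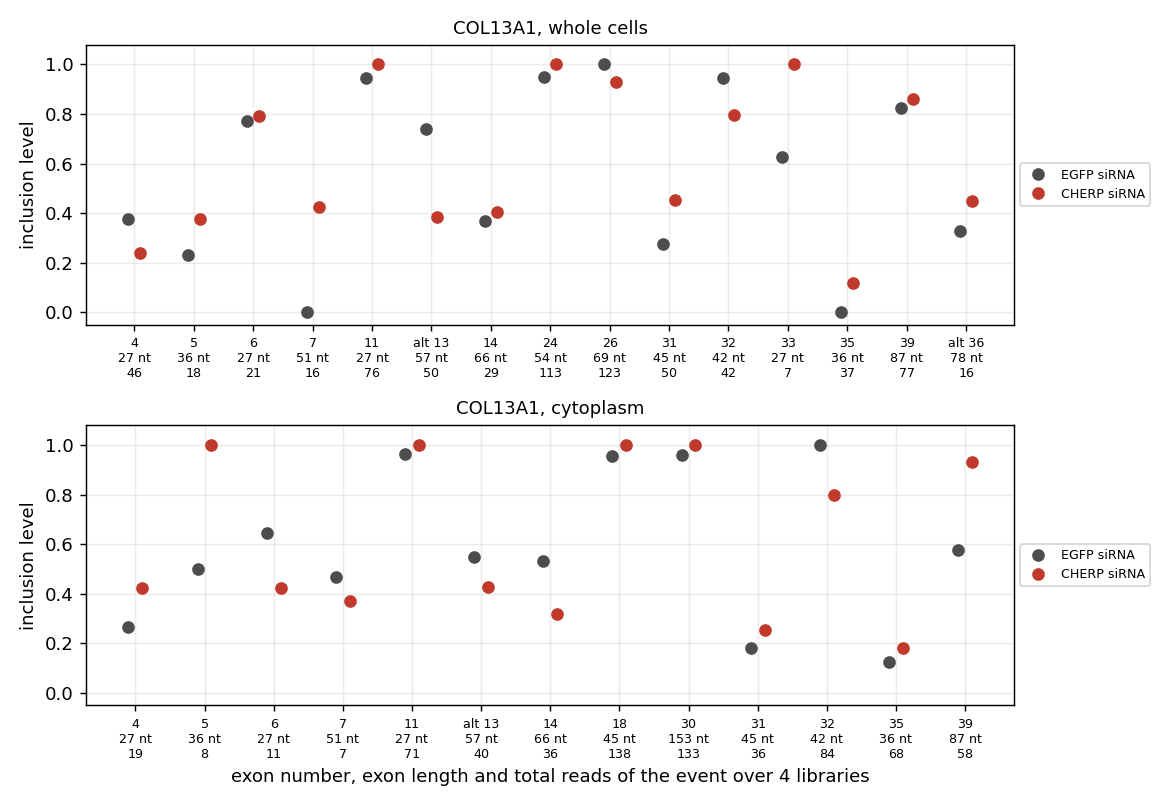
Inclusion level of each COL13A1 exon with an SE event, with reads of the 2 libraries of a siRNA summed (grey, EGFP; red, CHERP), in whole cells (top) and cytoplasm (bottom). Labels give the exon number in the canonical transcript (alt, an exon of another transcript), its length and the total reads of the event. Exon 11 lies near the top and exon 35 near the bottom in both fractions, at 0.969 and 0.0659 over all whole-cell libraries.

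Mutually exclusive exons of collagen genes were also few. The siRNAs overlapped in each of the 3 whole-cell and 5 cytoplasmic collagen MXE events that averaged 20 reads, where 37.3% and 39.8% of all MXE events of that depth did not overlap.

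Retained introns of collagen genes were few. The COL6A3 intron with the most reads was spliced out nearly completely, with retention levels of 0.0169 and 0.00688 against 0.0140 and 0.0119 in whole cells on 118 reads a library (FDR 0.985). A COL1A1 intron had levels of 0.00999 and 0 against 0 and 0.0353 in whole cells, and a level above 0 in 1 of the cytoplasmic libraries only, at 0.00245 in CHERP library 1 with 152 reads a library on average. A COL7A1 intron was retained in a large share, at 1.00 and 0.419 against 0.318 and 0.357 on 17 reads a library (FDR 0.760), so the siRNAs did not overlap but the first EGFP library had no spliced read. Only 2 RI events of collagen genes in whole cells and 1 in the cytoplasm averaged 20 reads. None of them had libraries that did not overlap, against 40.2% of all such RI events in whole cells and 38.3% in the cytoplasm. So few events allow no comparison with these shares.

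One alternative 3′ splice site is named after its values were seen. For COL6A2 the long form of the exon at chr21:47548817-47549719 was at 0.242 and 0.310 with EGFP siRNA against 0.148 and 0.192 with CHERP siRNA in whole cells, on 52.3 reads a library (FDR 0.871). It was at 0.214 and 0.166 against 0.139 and 0.271 in the cytoplasm, which overlapped. In whole cells 2 of the 4 collagen A3SS events of that depth did not overlap, against 31% of all. For the 54 collagen events found in both fractions with reads in all groups, the effect of CHERP siRNA was compared between whole cells and cytoplasm. None differed at an FDR of 0.05 (smallest FDR 0.896), against 0.0327% of all 33604 events compared. By type the shares of all events were 0% of SE and A3SS, 0.188% of RI, 0.0487% of A5SS and 0.241% of MXE events. At an unadjusted p under 0.05 there were 0 collagen events, against 3.26% of all events compared.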

How the data were processed

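Poly(A)+ RNA of U2OS cells was sequenced as stranded libraries. Per the labels and the methods of the study, the authors aligned reads with STAR 2.5.2b to hg19, estimated gene expression with RSEM 1.2.25 and GENCODE 19, compared genes with EBSeq and counted events with rMATS (version not given in the sources used here). The deposited rMATS tables hold, for each event, the reads of both forms in the 2 libraries of a siRNA, without replicate numbers, and library 1 and 2 here is the order in the cell. The authors' inclusion levels (20 columns of values per library), p-values, FDR, fold changes and posterior probabilities were not used. The authors' gene table for the cytoplasm gives mean counts of 2 unnamed conditions for genes past a posterior probability of 0.95.

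Inclusion levels were recomputed from reads and effective lengths. Each event was tested in its whole table (R 4.3.3, limma 3.58.1, its squeezeVar function for the dispersion trend, floor 1) by a quasi-binomial deviance test, two-sided, with Benjamini-Hochberg adjustment and a threshold of 0.05. Its estimated dispersion did not vary between events beyond the trend, so the test and its odds ratio intervals take no account of the spread of a single event. Limma on log2 odds, with 0.5 added, is the check that does. Abundance was scaled by median ratios and tested with limma (trend) on log2(value + 0.01), which understates changes of low values, in genes averaging 20 reads or more. Intervals are Wilson's or, for odds ratios, normal on the log scale. The tests were tested on simulated data. All 222 introns beside collagen SE exons had GT or GC and AG ends in the GRCh37 sequence, so hg19 coordinates were used as given, and exon numbers came from GENCODE 44 lifted to that build.

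The members and lists were chosen with earlier results of these data known. Named were collagen events past FDR 0.05 (none), the 10 SE and 5 RI events per fraction with the largest difference among those of 20 or more reads whose libraries do not overlap, every tested collagen gene, and up to 6 members of each list past the test with the largest change. SERPINH1, FN1, MMP2, PLOD1, COL6A3 exon 3, the introns and the further COL13A1 exons were named after their values were seen. A marker and a sequence are not reported here.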

Additional observations from a re-analysis of the deposited data

How the results depend on the processing

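No collagen event passed an FDR of 0.05 under any alternative run: a minimum of 10 or 50 reads, another dispersion trend, limma on log2 odds, and each library left out in turn (0 to 0 for each type and fraction). The collagen genes called in whole cells were 4 to 6 under the other settings against 6, and 2 to 7 with a library left out, the 2 without CHERP library 1. In the cytoplasm they were 3 with a mean of at least 100 reads, where 5 were tested, 6 to 8 under the others, and 4 to 7 with a library left out. Called genes of the 6 lists ranged from 14 to 34 in whole cells and from 22 to 24 in the cytoplasm with a library left out. COL12A1, COL8A1 and COL4A2 kept their calls under the alternatives in which they were tested, which for cytoplasmic COL8A1 leaves out the minimum of 100 reads. Of the 293 values of collagen genes under alternatives, 250 kept direction and side of the threshold, 23 lost a call, 10 gained one and 10 changed sign, all of genes that did not pass the test. These 10 arose with a library left out, where whole-cell log2 fold changes ran from -0.26 to 0.63 for COL6A3, -0.15 to 0.28 for COL4A1, -0.54 to 0.11 for COL3A1 and -0.38 to 0.019 for COL27A1, and cytoplasmic ones from -0.0088 to 0.22 for COL4A1 and -0.21 to 0.29 for COL27A1 (-0.09 without CHERP library 2), or with scaling by total (-0.011 for cytoplasmic COL4A1, -0.077 for COL27A1) or 1 event per exon (-0.14 for COL27A1). Scaling by total moved the median of all cytoplasmic genes from 0.01 to -0.10, and 40.2% of calls were then higher, against 53.5%. The causes were not tested. No paired analysis was possible because the 2 values in a cell carry no replicate number. Where 1 library is left in a group, it is assumed to vary like the others.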
